A study of Mus musculus with 6 samples.

Results

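The serpins are a family of proteins that share 1 fold, and the genes described here are those whose array probes map through a RefSeq transcript to a mouse symbol beginning with Serpin. There were 60 such genes, read by 75 probes, among the 20887 gene symbols that the array's probes could be given. Of the 60 genes, 37 passed the filter on dim probes and were tested, 28 of them detected above background in Cy5 on each of the 6 arrays, and 23 were not tested. RefSeq lists 69 Serpin symbols, and 9 of them (Serpina16, Serpina1b, Serpina3d-ps, Serpina3e-ps, Serpina3g, Serpina3l-ps, Serpinb1-ps1, Serpinb9h and Serpine3) had no probe that could be named in this way.

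Serpins trap their target proteases. The protease cleaves an exposed reactive centre loop, the loop inserts into the body of the serpin, and enzyme and inhibitor stay joined in an inactive complex. Letters name the clades. Clade A holds secreted proteins, many of them made by liver and found in plasma, such as alpha-1-antitrypsin and antichymotrypsin, and clade B holds proteins without a classical secretion signal that mostly protect cells from their own or from granule proteases. The remaining clades hold antithrombin (C), heparin cofactor II (D), protease nexin (E), antiplasmin and pigment epithelium-derived factor (F), the C1 inhibitor of complement (G), a collagen chaperone of the endoplasmic reticulum (H) and neuroserpin (I). Some members, among them maspin (Serpinb5) and the collagen chaperone (Serpinh1), do not inhibit proteases. In the mouse, alpha-1-antitrypsin and antichymotrypsin are each encoded by a cluster of similar copies, Serpina1a to Serpina1f and Serpina3a to Serpina3n.

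The question the design poses is how mammary cells with Lgr5 differ from those without it. Both groups were sorted from the mammary glands of virgin mice, strain C57/B6, with the genotype lgr5-egfp-ires-creert2, in which EGFP is made from the locus of Lgr5, an R-spondin receptor found on stem cells of gut and other epithelia. Cells in the gate named P4 (Lin-CD24+CD29hi) were sorted into an Lgr5-positive group with GFP and an Lgr5-negative group without it. Each group had 3 arrays, so n = 3 against 3 throughout, and the labels do not give the age of the mice, the number pooled or the markers behind Lin. Sample RNA was labelled with Cy5 on every array, and the Cy3 channel held a common reference, RNA pooled from 11 mouse cell lines. The unit below is the log2 ratio of Cy5 over Cy3: 0 is a signal equal to the reference and 1 is a doubling. Log2 fold changes are the Lgr5-positive mean minus the Lgr5-negative mean, so a negative value is a lower signal in Lgr5-positive cells.

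Promoters of 4 clade A genes are shown because their genes lie at both ends of clade A in the results: Serpina1a, Serpina1c and Serpina3f were far lower in Lgr5-positive cells, and the neighbouring copy Serpina1f was not. Each is 300 bases, from 250 before the start of transcription to 50 bases of transcript, read 5′ to 3′ on the gene's own strand from RefSeq's GRCm38.p6 table. Serpina1a lies at chr12:103863570-103863869 on the minus strand, Serpina1c at chr12:103904901-103905200 on the minus strand, Serpina1f at chr12:103695480-103695779 on the minus strand and Serpina3f at chr12:104214294-104214593 on the plus strand. Capitals mark GTTAAT, the core letters bound by the liver factor HNF1, in the first pair, and TTCNNNGAA, the letters bound by STAT factors, in Serpina3f; the run from Serpina1f holds no capitals because GTTAAT is not in that window.
Serpina1a: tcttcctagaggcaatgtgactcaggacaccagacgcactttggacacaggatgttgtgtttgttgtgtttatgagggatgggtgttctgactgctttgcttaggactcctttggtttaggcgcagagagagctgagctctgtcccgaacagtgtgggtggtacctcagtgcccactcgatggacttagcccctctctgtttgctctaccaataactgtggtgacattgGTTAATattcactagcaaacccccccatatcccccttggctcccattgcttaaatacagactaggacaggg
Serpina1c: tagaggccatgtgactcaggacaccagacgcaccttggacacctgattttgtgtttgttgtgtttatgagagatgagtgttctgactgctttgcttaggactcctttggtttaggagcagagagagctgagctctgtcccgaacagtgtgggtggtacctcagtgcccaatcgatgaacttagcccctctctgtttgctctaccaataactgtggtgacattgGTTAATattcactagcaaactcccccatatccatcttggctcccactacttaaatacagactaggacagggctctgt
Serpina1f: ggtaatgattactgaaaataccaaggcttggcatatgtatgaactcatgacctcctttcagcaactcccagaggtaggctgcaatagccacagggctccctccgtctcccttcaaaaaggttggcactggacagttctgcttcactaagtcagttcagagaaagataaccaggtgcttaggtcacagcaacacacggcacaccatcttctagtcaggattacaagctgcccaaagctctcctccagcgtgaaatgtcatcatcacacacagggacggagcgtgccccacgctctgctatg
Serpina3f: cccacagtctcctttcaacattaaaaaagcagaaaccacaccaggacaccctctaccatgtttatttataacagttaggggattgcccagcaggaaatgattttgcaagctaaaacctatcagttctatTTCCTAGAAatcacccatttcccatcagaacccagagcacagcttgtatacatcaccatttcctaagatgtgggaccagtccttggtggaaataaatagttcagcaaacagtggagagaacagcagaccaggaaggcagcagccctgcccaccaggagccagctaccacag

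Over these windows the promoters of Serpina1a and Serpina1c were identical at 94.9% of aligned positions, those of Serpina1a and Serpina1d at 92.6% and those of Serpina1a and Serpina1e at 95.9%. Serpina1a and Serpina1f were identical at 48.3%, and Serpina3f was identical to Serpina3i, the nearest of the copies with both a probe here and a promoter in the table, at 75.6%. Searched on both strands, GTTAAT occurred in 7.1% of all 32851 promoters in the table and in 12 of the 63 Serpin promoters, which belong to 54 genes. It began at position -21 in Serpina1a, -27 in Serpina1c, -16 in Serpina1d and -78 in Serpina1e. GTTAAT was also in Serpina3c (-239), Serpinb3d (-186) and Serpinb8 (-207), which were not called, with log2 fold changes of -0.13, 0.15 and -0.023. The other matches were in Serpina1b, Serpinb3b, Serpini2 and Serpina7, which were not tested. TTCNNNGAA occurred in 8.3% of all promoters and in 11 of the 63 Serpin ones, at -121 in Serpina3f and -102 in Serpina3i, and also at -97 in Serpina1f. A match describes these letters only and shows no binding.

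With the group as the only term in limma's moderated test, adjusted by Benjamini-Hochberg over all 15680 genes tested, 5 Serpin genes passed an adjusted p of 0.05 as lower in Lgr5-positive cells: Serpina3f, Serpina1a, Serpina1c, Serpina1d and Serpina1e. The same limma test called 0.587% of all genes lower and 0.0255% higher. No Serpin gene was called higher, and at an unadjusted p under 0.05 there were 12 lower and 0 higher, against 6.23% and 1.96% of all genes. The labels do not pair the arrays. Same-numbered arrays of the groups deviated together, so the same model was also fitted with replicate number as a blocking term (the block). What made them deviate together was not tested. With it, 10 Serpin genes passed as lower and 1 as higher, against 5.61% and 2.1% of all genes. The additional genes were Serpinb1a, Serpinb1c, Serpina10, Serpinb9 and Serping1, all lower, and Serpinb5, which was higher. The 10, and the 12 lower at an unadjusted p under 0.05, include Serpinb1c, which passed the filter only through the Lgr5-negative arrays. All 3 Lgr5-positive arrays lay below all 3 Lgr5-negative arrays for 11 of the 37 tested genes, Serpinb1c again among them. They lay above them for 1, Serpinh1. Over all genes these shares were 8.14% and 4.06%. The median log2 fold change was -0.18 over the 37 genes and 0.01 over all genes tested, and 26 of the 37 values were negative.

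The calls depended on single arrays and on the scaling. Group-alone Serpin calls numbered 0 without Lgr5-positive replicate 1 or 3, 4 without Lgr5-positive replicate 2 and 9 without Lgr5-negative replicate 1. They numbered 1 without Lgr5-negative replicate 2 and 3 without Lgr5-negative replicate 3. Calls over all 15680 genes moved too: 0 without Lgr5-positive replicate 1 or 3, 77 without Lgr5-positive replicate 2 and 371 without Lgr5-negative replicate 1. The fold changes of the 5 called genes stayed between -4.82 and -2.60. With the block, 12, 6 and 11 Serpin genes passed without pair 1, 2 and 3, and the counts over all genes, given at the end, moved as well. Median centring in place of loess moved the median of all genes to -0.29 and that of the Serpin genes to -0.56. Under it Serpina1c was the only Serpin gene called by group alone, where 9 of all genes were called. With the block 20 Serpin genes passed, all lower. Over all 15680 genes the block then called 5790, of which 97.8% were lower. With loess it called 1210, of which 72.7% were lower.

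**Figure D1:**
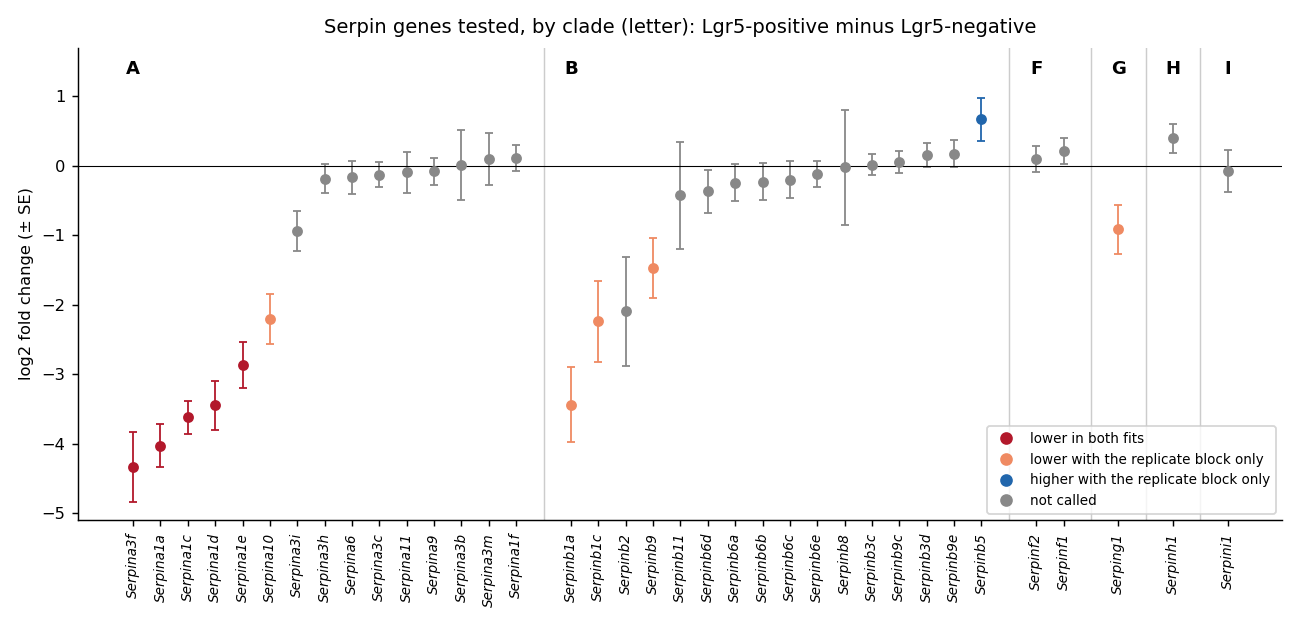
Each point is the log2 fold change (Lgr5-positive minus Lgr5-negative, y axis) of 1 tested Serpin gene of clades A, B and F to I with its standard error, grouped by clade letter along the x axis and coloured by call. Clade A spans -4.33 (Serpina3f) to 0.11 (Serpina1f) and clade B -3.44 (Serpinb1a) to 0.67 (Serpinb5), while the values near 0 in Serpina1f, Serpina3m, Serpina3b, Serpinf1 and Serpinh1 turn negative under median centring.

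Most markers of endothelium moved in the same direction as these genes. All 11 blood endothelial markers on the list (Pecam1, Cdh5, Kdr, Tie1, Tek, Egfl7, Plvap, Vwf, Emcn, Esam and Eng) were tested. By group alone 3 passed as lower (Egfl7, Plvap and Tie1), and 8 did with the block, against 0.587% and 5.61% of all genes. The mean log2 ratio of the 11 was 1.23 to 2.18 on the Lgr5-positive arrays and 2.99 to 3.64 on the Lgr5-negative arrays. Tie1 was well above background on 0 Lgr5-positive and 3 Lgr5-negative arrays, so it passed the filter only through the Lgr5-negative group. Of 5 lymphatic endothelial markers 4 were tested, with a mean ratio of 0.14 to 0.87 against 1.53 to 2.32. Lyve1 and Mmrn1 passed as lower in both fits, and Pdpn passed as higher with the block (0.61, adjusted p = 0.0445). Mmrn1 was well above background on 0 Lgr5-positive and 3 Lgr5-negative arrays, so it too passed the filter only through the Lgr5-negative group. Pericyte markers had 3 of 7 tested lower with the block (means of -0.024 to 0.46 against 0.52 to 0.97), and fibroblast markers 4 of 8 lower and 1 higher (-1.06 to -0.87 against -0.73 to -0.33). Leukocyte markers had 1 of 9 lower with the block, with overlapping means of -0.72 to 0.039 and -0.71 to 0.068. Over all genes the block called 5.61% lower and 2.1% higher. The part of these cell types in the Serpin results was not tested. In sorted bulk RNA, fewer cells of a type and less RNA per cell cannot be told apart.

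Of the 23 clade A genes on the array 15 were tested, and the median log2 fold change was -0.18. As lower, 5 passed by group alone and 6 with the block, against 0.587% and 5.61% of all genes. These counts rest largely on the copies of Serpina1, the mouse alpha-1-antitrypsin genes. In Lgr5-positive cells 4 copies fell together, with log2 fold changes of -4.02 to -2.87, and the remaining measured copy, Serpina1f, did not pass. Leaving out Serpina1a, Serpina1c, Serpina1d and Serpina1e, 11 clade A genes remained, with a median of -0.13. Of these, 1 was lower by group alone and 2 with the block, against the same 0.587% and 5.61%.

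Serpina1a had log2 ratios of 0.67, 1.62 and 0.88 in Lgr5-positive replicates 1 to 3 and of 4.83, 4.92 and 5.49 in Lgr5-negative ones, the order used for every gene below. Even the lowest Lgr5-negative array stood far above the highest Lgr5-positive one. The fold change was -4.02 (SE 0.31; adjusted p = 0.00853), a 16.3-fold lower signal. Serpina1c read 0.87, 1.37 and 0.79 in Lgr5-positive cells against 4.41, 4.57 and 4.92. The groups were again far apart, and its arrays were the least spread of the 4 copies within the Lgr5-negative group. Its fold change was -3.62 (SE 0.23; adjusted p = 0.0069), and it alone among the Serpin genes was called by group alone in all 8 alternative processings.

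Serpina1d read 0.50, 0.44 and 0.32 in Lgr5-positive cells, where 2 of the 3 arrays were well above background, and 3.09, 3.99 and 4.50 in Lgr5-negative cells. Its fold change was -3.44 (SE 0.35; adjusted p = 0.0197). Serpina1e read 1.21, 0.99 and 0.41 against 3.24, 3.69 and 4.28. The groups did not overlap for either gene, and within pairs the Serpina1e difference ran from -2.03 in pair 1 to -3.87 in pair 3. Its fold change was -2.87 (SE 0.33; adjusted p = 0.0289). All 4 copies also passed with the block. Serpina1f, whose promoter is the distant one shown above, read 0.64, 0.57 and 0.22 against 0.49, 0.26 and 0.36. These values overlapped, and the difference of 0.11 (SE 0.18; adjusted p = 1.00) turned to -0.10 under median centring.

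**Figure D2:**
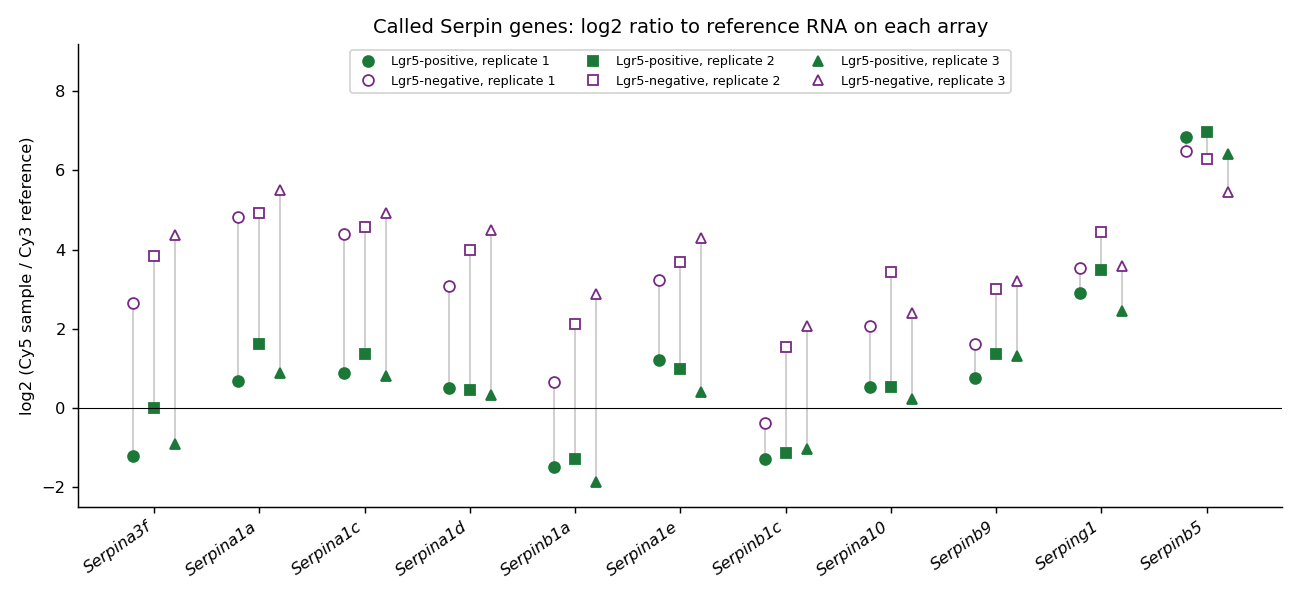
Log2 ratio of sample (Cy5) to reference RNA (Cy3) on each array (y axis) for the 11 Serpin genes called in either fit (x axis), filled for Lgr5-positive and open for Lgr5-negative, with lines joining arrays of the same replicate number. Lgr5-negative arrays lie above their Lgr5-positive partners for the first 10 genes, and Serpinb5 shows the opposite order in all 3 pairs although its groups overlap.

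The antichymotrypsin copies behaved unequally. Serpina3f had the lowest Serpin fold change and ranked 6th from the lowest among all 15680 genes, although with the Cy5 channel alone Serpina1a (-4.76) and Serpina1c (-4.27) lay below it (-4.21). It read -1.22, 0.00036 and -0.92 on the Lgr5-positive arrays and 2.66, 3.83 and 4.38 on the Lgr5-negative arrays. Every Lgr5-positive array was thus at or below the reference and every Lgr5-negative array well above it. The fold change was -4.33 (SE 0.50; adjusted p = 0.0289), a 20.2-fold lower signal, with pair differences of -3.87, -3.83 and -5.30. Next along the chromosome among tested copies, Serpina3h read 0.54, 0.20 and -0.076 against 0.57, 0.42 and 0.23, overlapping, with a difference of -0.18 (SE 0.21). Serpina3h passed as lower with the block under median centring, where 5790 of all 15680 genes passed and 97.8% of those were lower.

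Serpina3i read 0.16, 0.22 and 0.052 against 0.53, 1.08 and 1.65. The groups did not overlap, yet neither fit called the difference of -0.94 (SE 0.29; adjusted p = 0.338, and 0.0547 with the block); it passed with the block in 4 of 8 alternative processings and without pair 1. Serpina3c read -0.20, 0.057 and -0.16 against -0.16, 0.23 and 0.010, a difference of -0.13 (SE 0.18). Serpina3b read 1.51, -0.066 and 1.39 against 1.39, 0.18 and 1.24, and Serpina3m read 0.14, 0.33 and 1.43 against 0.25, 0.41 and 0.95. In both genes the replicates of a group differed more than the groups, and the differences of 0.012 (SE 0.51) and 0.095 (SE 0.38) turned to -0.28 and -0.016 under median centring.

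Of the 10 Serpina3 copies on the array 6 were tested, with a median of -0.16. In each fit 1 was called lower, against 0.587% of all genes by group alone and 5.61% with the block. Serpina3n, a copy secreted in the acute phase response, was not tested because its signal was well above background on 0 Lgr5-positive and 2 Lgr5-negative arrays. Its ratios were -0.023, 0.19 and 0.043 against 0.52, 1.19 and 1.77, and it passed with the block where no filter was applied. Serpina3a, Serpina3j and Serpina3k were not well above background on any array.

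Serpina10, the inhibitor of coagulation factors X and XI that works with protein Z, fell with the block. It read 0.53, 0.52 and 0.22 on Lgr5-positive arrays and 2.06, 3.42 and 2.40 on Lgr5-negative arrays, without overlap. The fold change of -2.20 (SE 0.36) had an adjusted p of 0.061 by group alone and of 0.00417 with the block. It rests on 1 probe. The second Serpina10 probe did not pass the filter, with 0 Lgr5-positive and 2 Lgr5-negative arrays well above background. That probe read -0.15, -0.26 and -0.089 against 0.30, 0.75 and 0.71, a smaller gap. The other tested clade A genes lay near 0: Serpina6, corticosteroid-binding globulin, at -0.16, Serpina11 at -0.093 and Serpina9 at -0.077. Serpina5, the protein C inhibitor, Serpina7, thyroxine-binding globulin, Serpina12 and the pseudogene Serpina4-ps1 were not tested.

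Copies of Serpina1 and of Serpina3 are similar enough that a probe made for one may read another, and how far the 4 Serpina1 results are separate was not tested. Serpina1a, Serpina1d, Serpina1e and Serpina3f each had a second probe that passed the filter, and Serpina1c had 1 probe. The second probes gave -2.87 for Serpina1a, -3.88 for Serpina1e and -3.14 for Serpina3f. These 3 passed the block fit over probes, and that of Serpina1e also passed by group alone (adjusted p = 0.0128), while those of Serpina1a (0.06) and Serpina3f (0.082) did not. The second Serpina1d probe was well above background on 0 Lgr5-positive and 3 Lgr5-negative arrays, so it passed the filter only through the group where it was high and says nothing on agreement. The second Serpina1e probe read 0.57, 1.73 and 0.71 in Lgr5-positive cells and 4.66, 4.83 and 5.17 in Lgr5-negative cells. On each of the 6 arrays these ratios to the reference lie nearer to those of the brighter Serpina1a probe than to those of the other Serpina1e probe.

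**Figure D3:**
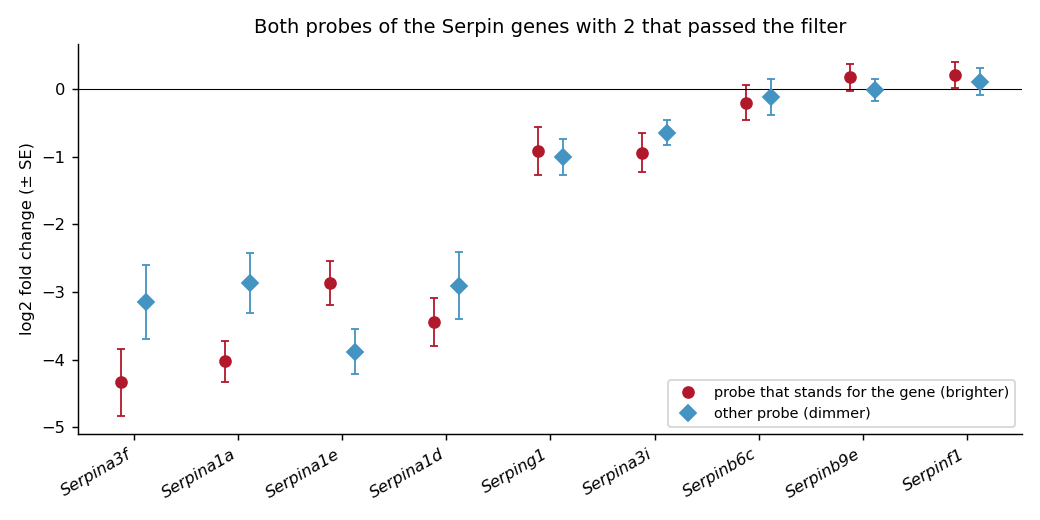
Log2 fold change with standard error (y axis) for both probes of the 9 Serpin genes (x axis) that had 2 probes past the filter; circles are the brighter probe that stands for the gene and diamonds the dimmer one, which for Serpina1d was well above background on 0 Lgr5-positive arrays. Probes of a gene differ by 0.084 (Serpinb6c) to 1.19 (Serpina3f), and Serpinb9e is the gene whose probes differ in sign (0.17 and -0.016).

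Clade B had 27 genes on the array and 16 tested. None was called by group alone, where limma gave 4 lower and 0 higher at an unadjusted p under 0.05 (6.23% and 1.96% of all genes). With the block 3 passed as lower and 1 as higher, against 5.61% and 2.1% of all genes, and the median was -0.21. The lower genes with the block were Serpinb1a, Serpinb9 and Serpinb1c, and the higher one was Serpinb5. Without pair 2, none of these 4 passed, and without pair 3 Serpinb5 did not. Serpinb1c, also among the 4 lower at an unadjusted p under 0.05, passed the filter only through the Lgr5-negative arrays.

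Serpinb1a encodes an intracellular inhibitor of neutrophil elastase, cathepsin G and proteinase 3. It read -1.51, -1.29 and -1.88 in Lgr5-positive cells, all below the reference, and 0.64, 2.13 and 2.87 in Lgr5-negative cells, all above it. The fold change was -3.44 (SE 0.54), with an adjusted p of 0.0558 by group alone and 0.00547 with the block, and the pair differences were -2.15, -3.41 and -4.75. Its copy Serpinb1c was well above background on 0 Lgr5-positive and on all 3 Lgr5-negative arrays, so it passed the filter through the Lgr5-negative group only. It read -1.29, -1.14 and -1.06 against -0.38, 1.55 and 2.06. After loess and Aquantile normalization, and for that normalization only, its Cy5 signal was at least 4.28-fold lower in Lgr5-positive cells, counted against the dimmest signal well above background on each array. Quantile normalization of the Cy5 channel gave a smaller log2 difference of -2.0. The fitted change in ratio had an adjusted p of 0.231 by group alone and 0.0188 with the block. The third copy, Serpinb1b, was not tested.

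Serpinb9 protects cells from granzyme B. Its ratios were 0.76, 1.35 and 1.30 against 1.62, 3.01 and 3.21, and the groups were separated by a narrow gap. The fold change was -1.47 (SE 0.43), with an adjusted p of 0.307 by group alone and 0.00893 with the block. The related Serpinb9c (0.058) and Serpinb9e (0.17) lay near 0, and Serpinb9b, Serpinb9d, Serpinb9f and Serpinb9g were not tested.

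Serpinb5 encodes maspin, a protein of mammary myoepithelial cells. It read 6.84, 6.97 and 6.41 in Lgr5-positive cells and 6.50, 6.28 and 5.45 in Lgr5-negative cells, all far above the reference mix. The groups overlapped, but the Lgr5-positive array was the higher one in each pair, by 0.35, 0.69 and 0.96. The fold change was 0.67 (SE 0.31), with an adjusted p of 0.719 by group alone and 0.0446 with the block; the blocked call was lost in 3 of 8 alternative processings. Markers of basal and myoepithelial cells were higher too, 4 of 11 with the block, against 2.1% of all genes. Their means were 3.61 to 3.90 in Lgr5-positive cells and 3.26 to 3.42 in Lgr5-negative cells. The part of these markers in the Serpinb5 result was not tested. Luminal markers had 3 of 11 tested lower with the block, against 5.61% of all genes, with means of 0.97 to 1.40 against 1.29 to 1.72.

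The 5 Serpinb6 copies, relatives of the human inhibitor of cathepsin G, were all well above background on all 6 arrays. None was called in either fit, with fold changes of -0.37 to -0.11 and a median of -0.23. Under median centring with the block all 5 passed as lower. In that setting the block called 5790 of all 15680 genes, 97.8% of them lower. Serpinb2, the plasminogen activator inhibitor of macrophages and keratinocytes, had a large but unsteady difference. It read 0.23, -0.55 and -0.082 in Lgr5-positive cells and 2.56, 3.27 and 0.032 in Lgr5-negative cells, so pair 3 did not share the gap of the other pairs. It was well above background on 1 Lgr5-positive and 2 Lgr5-negative arrays, so its size is uncertain. Its fold change of -2.09 (SE 0.79) had an adjusted p of 0.501, or 0.0944 with the block. With the block it passed without pair 3 and under median centring. Serpinb11 (-0.43), Serpinb8 (-0.023), Serpinb3c (0.017) and Serpinb3d (0.15) did not pass either, although Serpinb11 did with the block under median centring. Serpinb10 was not tested, with ratios of 0.51, 0.48 and 0.16 against 2.30, 2.07 and 0.40, where 0 Lgr5-positive and 2 Lgr5-negative arrays were well above background. Serpinb12, Serpinb13, Serpinb3a, Serpinb3b and Serpinb7 were not tested.

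Among the single-gene clades, Serping1, the complement C1 inhibitor, was lower in Lgr5-positive cells with the block. It read 2.91, 3.47 and 2.44 against 3.54, 4.43 and 3.59, with a gap of under 0.1 between the groups but a lower Lgr5-positive array in each pair. The fold change was -0.91 (SE 0.35), with an adjusted p of 0.516 by group alone and 0.0128 with the block, and its second probe gave -1.0. The blocked call was lost in 2 of 8 alternative processings and without pair 2.

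Serpinf1, pigment epithelium-derived factor, read -1.64, -1.89 and -1.85 against -1.73, -2.11 and -2.19, a difference of 0.21 (SE 0.19) that turned to -0.23 under median centring. Serpinh1, the collagen chaperone, read 0.14, 0.37 and 0.41 against 0.022, 0.13 and -0.41. These groups did not overlap, yet the difference of 0.39 (SE 0.20; adjusted p = 0.818, and 0.229 with the block) did not pass and turned to -0.0098 under median centring.

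Neuroserpin, Serpini1, read -0.49, 0.27 and 0.37 against -0.28, 0.35 and 0.30, a difference of -0.076 (SE 0.30), and antiplasmin, Serpinf2, differed by 0.096 (SE 0.19). Neither passed. Serpine2, protease nexin, Serpinc1, antithrombin, Serpind1, heparin cofactor II, and Serpini2 were not tested; Serpine2 and Serpini2 were not well above background on any array, and Serpinc1 and Serpind1 on 1 each.

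Most Serpin genes stand side by side, and the called ones were not spread evenly along their clusters. RefSeq's order places 23 protein-coding genes from Serpina10 to Serpina3n on chromosome 12, 16 from Serpinb1a to Serpinb6a on chromosome 13 and 12 from Serpinb5 to Serpinb8 on chromosome 1, and all of them are Serpin genes. Whether position played a part was not tested. On chromosome 12, Serpina1d, Serpina1a, Serpina1c and Serpina1e follow one another and all fell, though probes of these copies may read one another. They are bounded by Serpina11 on one side and, beyond the unmeasured Serpina1b, by Serpina1f on the other. Serpina3f fell among neighbours that were uncalled or unmeasured, and Serpina10, at the end of the cluster, passed with the block. On chromosome 13 the genes that passed with the block, Serpinb1a, Serpinb1c and Serpinb9, lie among the first 5 genes, with the uncalled Serpinb6b between them. Of these, Serpinb1c passed the filter only through the Lgr5-negative arrays. On chromosome 1 Serpinb5 passed with the block and the other 11 genes did not pass or were not tested.

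**Figure D4:**
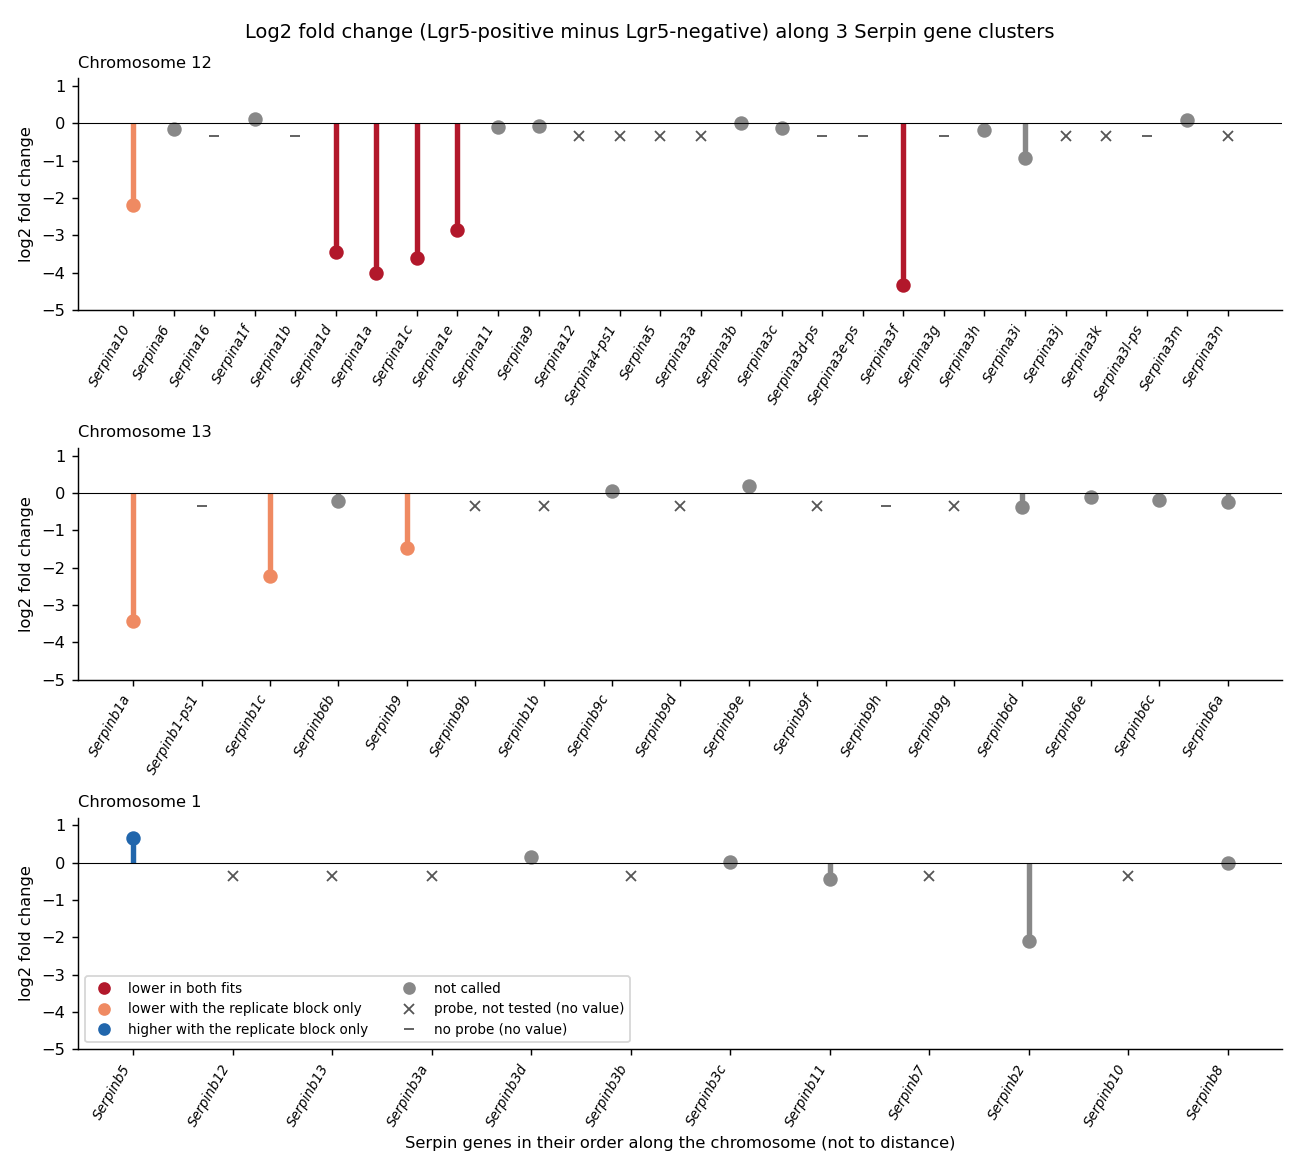
Log2 fold change (Lgr5-positive minus Lgr5-negative, y axis) of Serpin genes in RefSeq order along the clusters of chromosomes 12, 13 and 1 (x axis, order only, not distance); crosses are genes with a probe that was not tested and dashes genes without a probe. Long stems mark Serpina10, the run from Serpina1d to Serpina1e, Serpina3f, the Serpinb1a end of chromosome 13 and the uncalled Serpinb2 on chromosome 1, while Serpina1f and Serpina3m, at 0.11 and 0.095, turn negative under median centring.

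Proteases that serpins inhibit were read from a list of 32, of which 25 were tested. None was called by group alone in limma (7 lower and 1 higher at an unadjusted p under 0.05, against 6.23% and 1.96% of all genes), and with the block 6 passed as lower and 1 as higher, against 5.61% and 2.1% of all genes, with a median of 0.01. The lower ones with the lowest p were the lysosomal cathepsins Ctss (-1.27; SE 0.26; adjusted p = 0.00371 with the block), Ctsk (-1.27; 0.00883) and Ctsh (-0.98; 0.0161), the complement protease C1ra (-1.07; 0.00687), which Serping1 inhibits, and the secreted protease Htra1 (-0.91; 0.00783). The membrane protease hepsin, Hpn, was higher (0.64; adjusted p = 0.0236 with the block). Ctss read -2.31, -2.45 and -1.97 in Lgr5-positive cells against -1.29, -1.13 and -0.50. The plasminogen activators, targets of Serpinb2, did not pass, with Plau at 0.086 (SE 0.17) and Plat at 0.26 (SE 0.34), nor did neutrophil elastase, Elane, at 0.23 (SE 0.43). Gzmb, the target of Serpinb9, was not tested.

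Of 20 cofactors, receptors and partners of serpins 19 were tested; with the block 5 passed as lower and 2 as higher, against 5.61% and 2.1% of all genes, and the median was 0.081. None passed by group alone in limma, where 5 were lower and 1 higher at an unadjusted p under 0.05, against 6.23% and 1.96% of all genes. The thrombin receptor thrombomodulin, Thbd, read -0.96, 1.22 and 0.21 in Lgr5-positive cells against 1.53, 3.24 and 3.28, a fold change of -2.53 (SE 0.67; adjusted p = 0.00159 with the block). The protein C receptor, Procr, read -0.39, 1.17 and 0.47 against 1.91, 3.03 and 3.60, a fold change of -2.43 (SE 0.53; adjusted p = 0.0025 with the block). Neither gene's groups overlapped. Also lower with the block were vitronectin, Vtn (-1.42; adjusted p = 0.00341), tissue factor, F3 (-1.11; 0.00857), and the thrombin-activated receptor F2r (-1.32; 0.0236). Fibrinogen gamma, Fgg, was higher (1.43; SE 0.26; adjusted p = 0.00456 with the block), and the urokinase receptor, Plaur, did not pass (0.25; SE 0.39). Thbd and Procr are made by endothelium, whose markers were lower in the same arrays; their part in these values was not tested.

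Genes of collagen synthesis were read because Serpinh1 serves that pathway. Of 21 named, 20 were tested, with a median of -0.05 and with none called by group alone (1 lower and 1 higher at an unadjusted p under 0.05 in limma, against 6.23% and 1.96% of all genes). With the block Col3a1 was lower (-0.53; adjusted p = 0.0411) and Col6a1 higher (0.71; adjusted p = 0.0205), 1 of 20 in each direction against 5.61% and 2.1% of all genes. Of 16 other acute phase and liver-secreted genes, which share their main source with much of clade A, 11 were tested, with a median of 0.037 and none called by group alone (2 lower and 1 higher at an unadjusted p under 0.05 in limma, against 6.23% and 1.96% of all genes). Fibrinogen beta, Fgb, read 1.40, 2.45 and 0.67 against 3.55, 4.26 and 2.99, a fold change of -2.09 (SE 0.51; adjusted p = 0.00101 with the block). The lipopolysaccharide-binding protein gene, Lbp, was lower (-1.54; adjusted p = 0.00548) and lipocalin, Lcn2, higher (0.62; adjusted p = 0.0321), both with the block. Alb, Ttr, Apoa1, Orm1 and A2m were not tested. Fgb thus differed in direction from Fgg, which encodes another chain of the same plasma protein.

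The arrays themselves were of unequal brightness. Median Cy5 signal was 137 to 169 on the Lgr5-positive and 200 to 278 on the Lgr5-negative arrays, against a median background of 64 to 76, and 50.9% to 74.4% of probes were well above background. Of the 75 Serpin probes 40 to 45 were well above background on the Lgr5-positive arrays and 45 to 57 on the Lgr5-negative arrays, and 0 Serpin spots were saturated. The part of brightness in the Serpin results was not tested. All arrays were on 1 slide, with the Lgr5-positive array of each pair in the column before its Lgr5-negative partner, so within a pair the column on the slide and the group cannot be told apart. Lgr5 itself, the gene behind the sort, read 4.24, 5.36 and 5.01 in the arrays labelled positive and 2.84, 4.04 and 3.31 in those labelled negative, a difference of 1.47 (SE 0.40; adjusted p = 0.245, and 0.00214 with the block).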

How the data were processed

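Per the file headers, each array's deposited file came from Agilent Feature Extraction 11.0.1.1 (11.0 in the submitters' processing notes). It holds the intensity of every spot and its background in both channels, per the file headers. Its log10 values are, per the file headers, the ratio of the software's processed red (Cy5) to green (Cy3) signals, and 89.2% of them lay within 0.001 of that quotient. A deposited value table for the series holds log2 ratios, with 100% of probes centred on a median of 0 over the arrays; its columns had medians of -0.00165, 0.0313 and 0.0178 (Lgr5-positive) and 0.00637, -0.017 and -0.0477 (Lgr5-negative). It correlated with the scanner's centred ratio at 0.92 to 0.95, in the same direction, and 81.6% to 83.2% of values lay within 0.001 of it; its further processing is unknown.

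Median signals were corrected with normexp (offset 50) and loess in limma 3.58.1 under R 4.3.3. Spots of a probe were averaged. Of 23173 RefSeq accessions 21717 matched RefSeq's GRCm38.p6 table, used for names because the arrays are annotated on mm9, and 27509 of 55681 probes were named. Probes needed Cy5 well above background on 3 of 6 arrays (34552 kept), and the brightest stood for a gene. Groups were compared with lmFit and eBayes, two-sided, at an adjusted p of 0.05; nothing in the labels says that arrays came from separate animals, so p-values measure the spread between these samples, which may be technical. Same-numbered arrays deviated together from their group means (correlations of 0.81, 0.819 and 0.675), which was the criterion for pairing (over 0.1 in each pair).

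Values per array are given for members called in either fit, for the member with the lowest p in clades without a call, and for the Serpina1 and Serpina3 copies; fixed lists name up to 6 members by lowest p, and others named from them were chosen after their values were seen. The values of 1 tested member are not reported here; counts over the family include it. The members and lists were chosen with earlier results of these data known. The fit was tested on simulated data. The alternatives were no background subtraction, the scanner's ratio, the deposited table, median centring, Cy5 alone with quantile normalization, other filters, the mean over probes, the replicate block, and leaving out arrays or pairs. The number of arrays limits the precision.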

Additional observations from a re-analysis of the deposited data

How the results depend on the processing

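The 5 Serpin calls by group alone became 11 with the replicate block and 1 with median centring; leaving out arrays or pairs gave 0 to 9, or 6 to 12 for pairs with the block. Over all genes the 96 calls became 1210 with the replicate block, 9 with median centring and 44 where all 6 arrays had to be well above background, and leaving out arrays or pairs gave 0 to 371 (371 without Lgr5-negative replicate 1). With the block, leaving out pair 1, 2 or 3 gave 1397, 326 and 854. The median of the Serpin genes, -0.18, became -0.56 with median centring and -0.084 without a filter, and lay between -0.28 and -0.11 without single arrays or pairs. The 11 blocked Serpin calls, a count added after seeing the data, became 20 with median centring. Blocked calls over all genes went from 1210 to 5790 under it. Blocked Serpin calls numbered 6 to 12 without a pair. The other alternatives gave 9 to 15, with 738 to 1307 blocked calls over all genes.

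With median centring, Serpina1f turned to -0.10, Serpina3b to -0.28, Serpina3m to -0.016, Serpinf1 to -0.23 and Serpinh1 to -0.0098. Without single arrays or pairs, Serpina3b ranged from -0.37 to 0.52, Serpina3m from -0.30 to 0.34 and Serpini1 from -0.28 to 0.19; none of these was called. The cause of these shifts was not tested. Among the called genes no fold change changed sign. A slide block was not run because there was 1 slide. Probes near background limit what can be read for the 23 untested genes.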
